A study of Homo sapiens with 56 samples.

Results

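The expression of 38 genes of the lysosome and of autophagy was followed in a pair of human acute myeloid leukaemia lines, Mv4;11 and KG-1, after treatment with an inhibitor of RNA polymerase I. The genes were chosen as a list of symbols, with earlier results of these data known. All 38 were present in both count tables, which held 59409 symbols for Mv4;11 and 59081 for KG-1. By role they fell into 3 transcription factors of the MiT/TFE family (TFEB, TFE3, MITF), 4 lysosomal membrane proteins (LAMP1, LAMP2, MCOLN1, NPC1), 13 hydrolases (CTSA, CTSB, CTSD, CTSH, CTSL, CTSS, CTSZ, DNASE2, GAA, GLA, GLB1, HEXA, NEU1) and 3 lumenal proteins that are not enzymes (PSAP, GRN, NPC2). The remaining roles were 5 components of the proton pump (ATP6V0D1, ATP6V1A, ATP6V1B2, ATP6V1H, ATP6AP1) and 10 genes of the autophagy machinery (SQSTM1, MAP1LC3B, GABARAPL1, GABARAPL2, ULK1, WIPI1, ATG9A, ATG16L2, BNIP3L, PINK1). All 38 passed the filter on low counts in Mv4;11, among 20495 genes tested. In KG-1 36 passed, among 18618, and CTSL and MITF did not.

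Mv4;11 and KG-1 are established suspension lines. Each received PMR-116 or CX-5461, both at 1 µM, or a citric acid and sodium phosphate buffer as vehicle, and was collected after 3 h or 12 h. Each compound had vehicle libraries of its own at each time, so the comparisons of PMR-116 and of CX-5461 shared no library. The 56 libraries formed 16 groups, with 3 libraries per group in Mv4;11 and 4 in KG-1. All Mv4;11 libraries belonged to batch 1 and all KG-1 libraries to batch 2, so line and batch cannot be told apart. Nothing in the labels says that replicates were separate cultures, and p-values then measure only the spread between these libraries, which may be technical.

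Lysosomes are acidic organelles that break down proteins, lipids, glycans and nucleic acids with hydrolases, and the V-ATPase pumps the protons that these enzymes need. Autophagy delivers cytoplasm and organelles to them inside vesicles whose membranes carry lipid-bound proteins of the LC3 and GABARAP family. TFEB, TFE3 and MITF are basic helix-loop-helix factors that bind E-box sequences in the promoters of many of these genes, and the kinase complex mTORC1, which sits on the lysosomal surface, holds them in the cytoplasm while nutrients are plentiful. Myeloid cells, including leukaemic ones, are rich in lysosomal hydrolases. PMR-116 and CX-5461 are inhibitors of RNA polymerase I, the enzyme that makes the large ribosomal RNA precursor.

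Library totals ran from 28751951 to 41542587 counts in Mv4;11 and from 31010467 to 72707768 in KG-1, and levels below are CPM, counts divided by the library size after scaling by TMM, the trimmed mean of M-values. The myeloid markers PTPRC, CD33, FLT3, MPO and SPI1 were tested in both lines, and the sum of 7 leukaemia markers lay between 642 and 967 CPM in Mv4;11 and between 2466 and 3175 CPM in KG-1. CD34 had a mean under 0.1 CPM in 6 of the 8 Mv4;11 groups. A single library stood apart, Mv4;11 vehicle for PMR-116 12 h replicate 3, with 1126 CPM of the nuclear RNA MALAT1 against 59.4 and 63.3 CPM in its replicates, 438 CPM of the signal recognition particle RNA RN7SL2 against 11.7 and 15.2, and 2607 CPM of the mitochondrial ribosomal RNA MT-RNR1 against 336 and 365. The counts of called members at 12 h of PMR-116 in Mv4;11 are therefore also given without it, by role. MT-RNR1 moved with the compounds as well. With PMR-116 it lay at 711 to 841 CPM at 3 h and 1166 to 1183 CPM at 12 h in Mv4;11, above the other vehicle libraries of that line (248 to 365 CPM), and in KG-1 at 704 to 754 against 442 to 501 CPM at 3 h and 835 to 1095 against 462 to 611 CPM at 12 h. After 12 h of CX-5461 it was at 527 to 540 against 320 to 337 CPM in Mv4;11 and 578 to 681 against 449 to 549 CPM in KG-1. Its part in the members' changes was not tested. In bulk RNA, fewer cells of a type and less RNA per cell cannot be told apart. Between the vehicle groups of the 2 compounds 0 of the members, and 0 of all genes (0%), were called in each line at each time with edgeR's quasi-likelihood test. DESeq2 also called 0 members there, and between 1 and 2 members per comparison had an unadjusted p under 0.05. In KG-1 these uncalled differences were lopsided: 28 of 36 members at 3 h and 32 of 36 at 12 h had the higher estimate in the vehicle for PMR-116, with medians of 0.05 at both times, whereas in Mv4;11 18 and 13 of 38 did.

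Promoter windows in RefSeq (build GRCh38.p14), which run from 250 bases before to 50 bases after each gene's start, were found for 28 of the 38 members. The entries LAMP2, CTSB, CTSS, HEXA, PSAP, ATP6V1A, ATP6V1B2, ATP6V1H, BNIP3L and PINK1 were not matched. The E-box word CACGTG was searched on both strands, which for this word are the same letters, together with TCACGTGA, which contains it and is the core of the element that MiT/TFE factors bind. CACGTG lay in the windows of 7 of 28 members (25%), against 8.77% of 27305 symbols with windows of this length. TCACGTGA lay in 5 of 28 (17.9%), against 1.18% of all symbols, and the same word with a G before and a C after it in 2 (7.14%), against 0.421%. The 7 promoters that held either word are printed as the stretch before the start that holds every match there with 15 bases on each side, or up to the start where that is nearer (MCOLN1), on the gene's own strand. The family binds E-boxes, but whether it binds these was not measured. Capitals mark TCACGTGA, or CACGTG where the outer bases differ.
LAMP1, chr13:113297032-113297232, plus strand: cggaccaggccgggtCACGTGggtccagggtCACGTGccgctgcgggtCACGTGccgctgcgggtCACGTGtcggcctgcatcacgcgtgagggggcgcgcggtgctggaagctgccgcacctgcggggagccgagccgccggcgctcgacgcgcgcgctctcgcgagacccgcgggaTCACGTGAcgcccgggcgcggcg
MCOLN1, chr19:7522567-7522623, plus strand: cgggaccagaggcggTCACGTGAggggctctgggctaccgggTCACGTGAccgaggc
CTSA, chr20:45891278-45891331, plus strand: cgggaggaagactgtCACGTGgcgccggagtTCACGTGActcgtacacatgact
CTSD, chr11:1763954-1763989, minus strand: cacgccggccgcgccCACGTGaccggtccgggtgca
GAA, chr17:80101489-80101571, plus strand: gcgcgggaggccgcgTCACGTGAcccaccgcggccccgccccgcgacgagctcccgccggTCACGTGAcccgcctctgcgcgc
NEU1, chr6:31862927-31862962, minus strand: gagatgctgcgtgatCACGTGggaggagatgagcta
ATP6V0D1, chr16:67481195-67481232, minus strand: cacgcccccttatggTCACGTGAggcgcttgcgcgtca
The printed matches lay between 7 and 192 bases before the start, and LAMP1 held a further TCACGTGA after its start. None of the 8 matched autophagy genes and none of the 3 transcription factors held either word, and neither did the windows of DNASE2, CTSL or GABARAPL1.

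In Mv4;11 the lysosome and autophagy genes were broadly higher 12 h after PMR-116. Of 38 members 31 rose and 1 fell at an adjusted p under 0.05, where 20.7% of all genes tested rose and 22.5% fell. Since the list was chosen with earlier results of these data known, these shares are a description and not a test. The median log2 fold change was 0.44 over the members and 0.01 over all genes tested. After 12 h of CX-5461 22 of 38 rose and none fell, with a median of 0.28, where 14.8% of all genes rose and 16.5% fell and the median of all genes was 0.04. At 3 h 13 members rose and 2 fell with PMR-116 (11.0% and 13.1% of all genes), and 6 rose and none fell with CX-5461 (5.05% and 6.61%). In KG-1 fewer members were called in the main fit, which leaves out the pairing of replicates described below. Medians over the members ran from 0.09 to 0.12, where the vehicles of the 2 compounds differed by medians of 0.05. There 7 of 36 rose and none fell at 3 h of PMR-116 (3.61% and 3.71% of all genes), and 8 rose and 1 fell at 12 h (4.73% and 4.74%). With CX-5461 5 rose at 3 h and 2 at 12 h, and none fell (1.85% and 1.36% of all genes rose, 1.58% and 1.18% fell). PINK1 was the sole member that rose in all 8 comparisons, and CTSA and ATP6V1B2 rose in none. MITF, near the floor, rose in none of the 4 comparisons in which it was tested, all in Mv4;11.

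**Figure D1:**
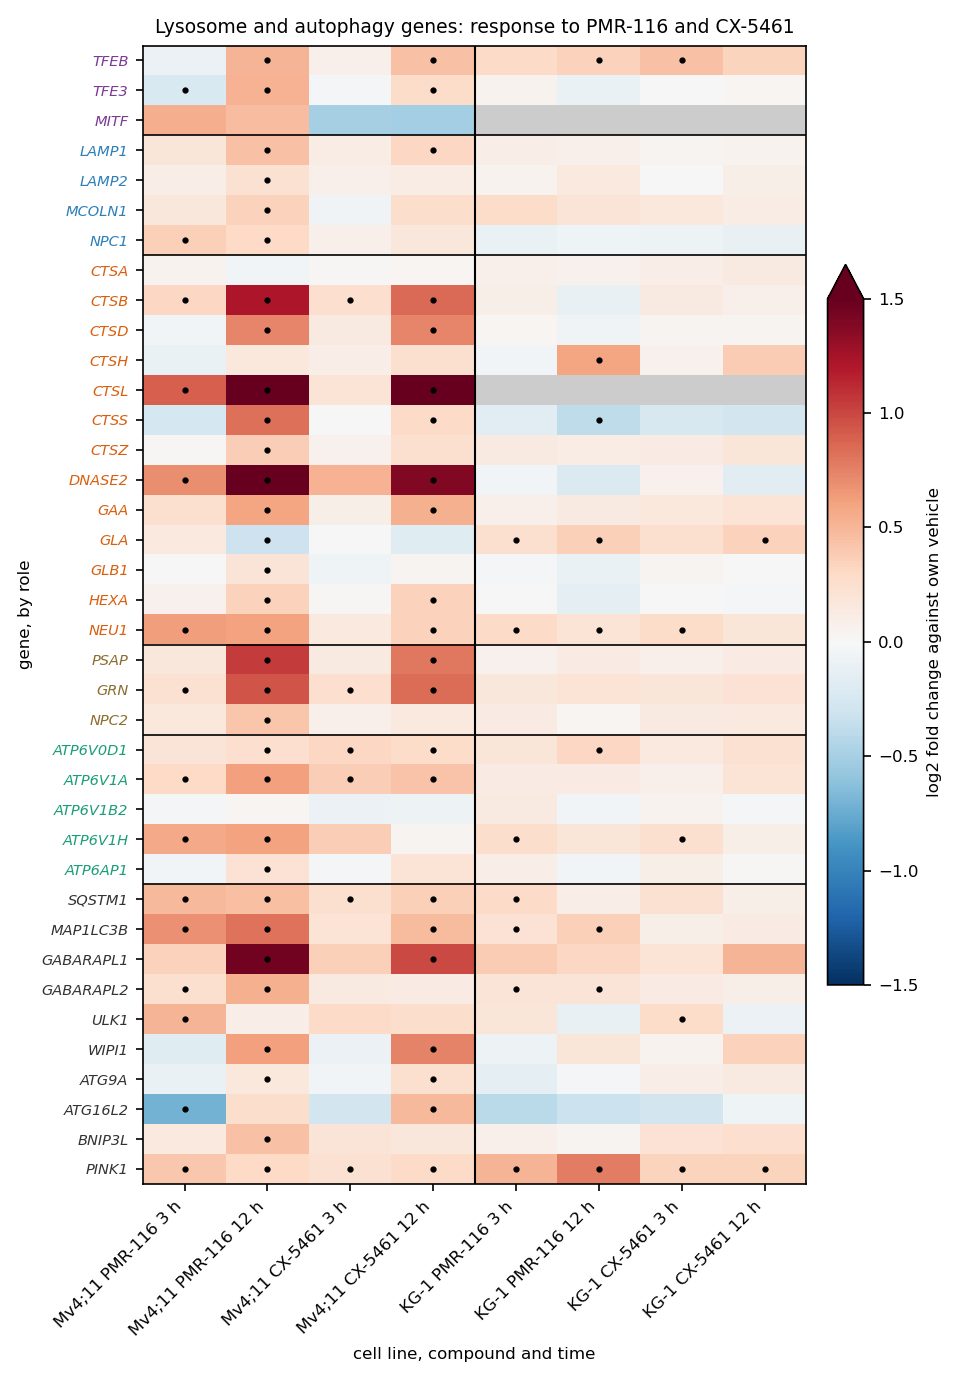
Log2 fold change of each member (rows, grouped and coloured by role) against its own vehicle in the 8 comparisons (columns). Red is higher and blue is lower with the compound, the darkest red also stands for values beyond the end of the scale (DNASE2 and CTSL in Mv4;11), a dot marks an adjusted p under 0.05, and grey marks CTSL and MITF in KG-1, which were not tested; the column for Mv4;11 at 12 h of PMR-116 holds 32 dots and that for KG-1 at 12 h of CX-5461 holds 2.

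Replicate numbers were taken as pairs in KG-1, and there the fit with the replicate as a block called more members. The other KG-1 counts and values, and the differences between the lines, are from fits without the block, unless another fit is named. Those fits leave the pairing out. With this replicate block the counts were 12 (11 up and 1 down) at 3 h and 16 (13 up and 3 down) at 12 h of PMR-116, and 10 (9 up and 1 down) at 3 h and 13 at 12 h of CX-5461. Of all genes 13.96% and 17.2% were then called for PMR-116 at 3 h and 12 h, and 9.31% and 7.05% for CX-5461. The 10 called at 3 h of CX-5461 were more than the 6 called in Mv4;11 without the block.

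The 2 MiT/TFE factors with appreciable mRNA rose at 12 h in Mv4;11. TFEB, the family member best known as a regulator of lysosomal genes, measured 30.01, 26.6 and 28.2 CPM at 12 h of PMR-116 and 18.7, 21.6 and 19.4 CPM with vehicle. All treated libraries lay above all vehicle libraries, and the log2 fold change was 0.51 ± 0.10 (SE; adjusted p = 0.000144). With CX-5461 at 12 h it measured 24.1, 25.6 and 25.7 against 19.3, 16.01 and 20.3 CPM, again with no overlap (0.44 ± 0.10, adjusted p = 0.00121). At 3 h its libraries overlapped with those of vehicle under both compounds, with 23.1, 22.1 and 19.8 against 20.7, 25.02 and 23.5 CPM for PMR-116 (log2 fold change -0.09) and 21.9, 25.1 and 21.1 against 21.8, 22.7 and 20.1 CPM for CX-5461 (0.08).

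TFE3, its close relative, went down before it went up in Mv4;11. At 3 h of PMR-116 it measured 35.5, 32.9 and 31.9 CPM against 38.7, 41.1 and 37.95 CPM, all below vehicle (log2 fold change -0.23 ± 0.07, adjusted p = 0.0258). That fall lost its call without vehicle replicate 2 or treated replicates 2 or 3 (adjusted p up to 0.118). At 12 h TFE3 was at 50.03, 52.3 and 51.6 against 36.7, 37.5 and 33.03 CPM, all above (0.52 ± 0.07, adjusted p = 3.26e-06), and the 12 h effect exceeded the 3 h effect by 0.75 ± 0.11. CX-5461 at 12 h gave 42.9, 47.9 and 48.2 against 38.6, 38.5 and 37.6 CPM (0.28 ± 0.07, adjusted p = 0.00539), whereas at 3 h the libraries overlapped, at 35.04, 37.5 and 34.96 against 38.1, 38.98 and 31.8 CPM (-0.02).

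MITF mRNA was near the floor. In Mv4;11 it lay at 1.15, 0.914 and 1.11 CPM at 12 h of PMR-116 and 0.812, 0.395 and 1.07 CPM with vehicle, and at 0.660, 0.640 and 0.901 against 0.732, 0.331 and 0.438 CPM at 3 h. For CX-5461 it was at 0.564, 0.566 and 1.11 against 1.51, 0.830 and 0.856 CPM at 12 h, and 0.339, 0.886 and 1.02 against 0.697, 1.05 and 1.41 CPM at 3 h. The groups overlapped in all 4 comparisons and MITF was not called. In KG-1 it was at 0 in 30 of 32 libraries and at most 0.0187 CPM in the others.

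The hydrolases held the largest changes. In Mv4;11 10 of 13 rose and 1 fell after 12 h of PMR-116, and the median log2 fold change was 0.60. DNASE2, the acid nuclease that digests DNA reaching the lysosome, measured 23.7, 24.2 and 35.8 CPM with PMR-116 and 2.30, 1.72 and 2.71 CPM with vehicle. The lowest treated library was above the highest vehicle library by far more than the spread within either group, and the fitted fold was 12.4 (95% interval 9.11 to 16.8), a log2 fold change of 3.63 ± 0.21 (adjusted p = 1.67e-12). Leaving out each library in turn, the one that stands apart included, gave log2 values from 3.39 to 3.77. CTSL, an endopeptidase, measured 2.08, 4.26 and 3.71 against 0.476, 0.467 and 0.792 CPM, again without overlap (2.52 ± 0.29, adjusted p = 1.3e-07). CTSL was a low-abundance transcript, and its interval was wide, at 3.79 to 8.71 in fold.

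The cathepsins of higher abundance also rose at 12 h of PMR-116. CTSB, a cysteine protease, went from 193, 200 and 189 to 459, 425 and 464 CPM (fold 2.32, 95% interval 2.07 to 2.59). CTSS, a protease of antigen-presenting cells, rose by a log2 fold change of 0.82 ± 0.10 and CTSD, the main aspartic protease, by 0.73 ± 0.08. CTSZ, which trims peptides from their carboxyl end, rose by 0.37 ± 0.12, and CTSH and CTSA were not called (0.15 ± 0.17 and -0.04 ± 0.12). Among the enzymes that cleave sugars, the sialidase NEU1 (0.61), the glycogen-degrading GAA (0.60), HEXA (0.34) and GLB1 (0.19) rose. GLA, the alpha-galactosidase, was the single member that fell, with 54.8, 57.6 and 53.9 CPM against 71.9, 73.2 and 61.1 CPM, all below vehicle (-0.31 ± 0.09, adjusted p = 0.00781). Its fall lost the call when libraries were scaled by their totals (adjusted p = 0.207).

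**Figure D2:**
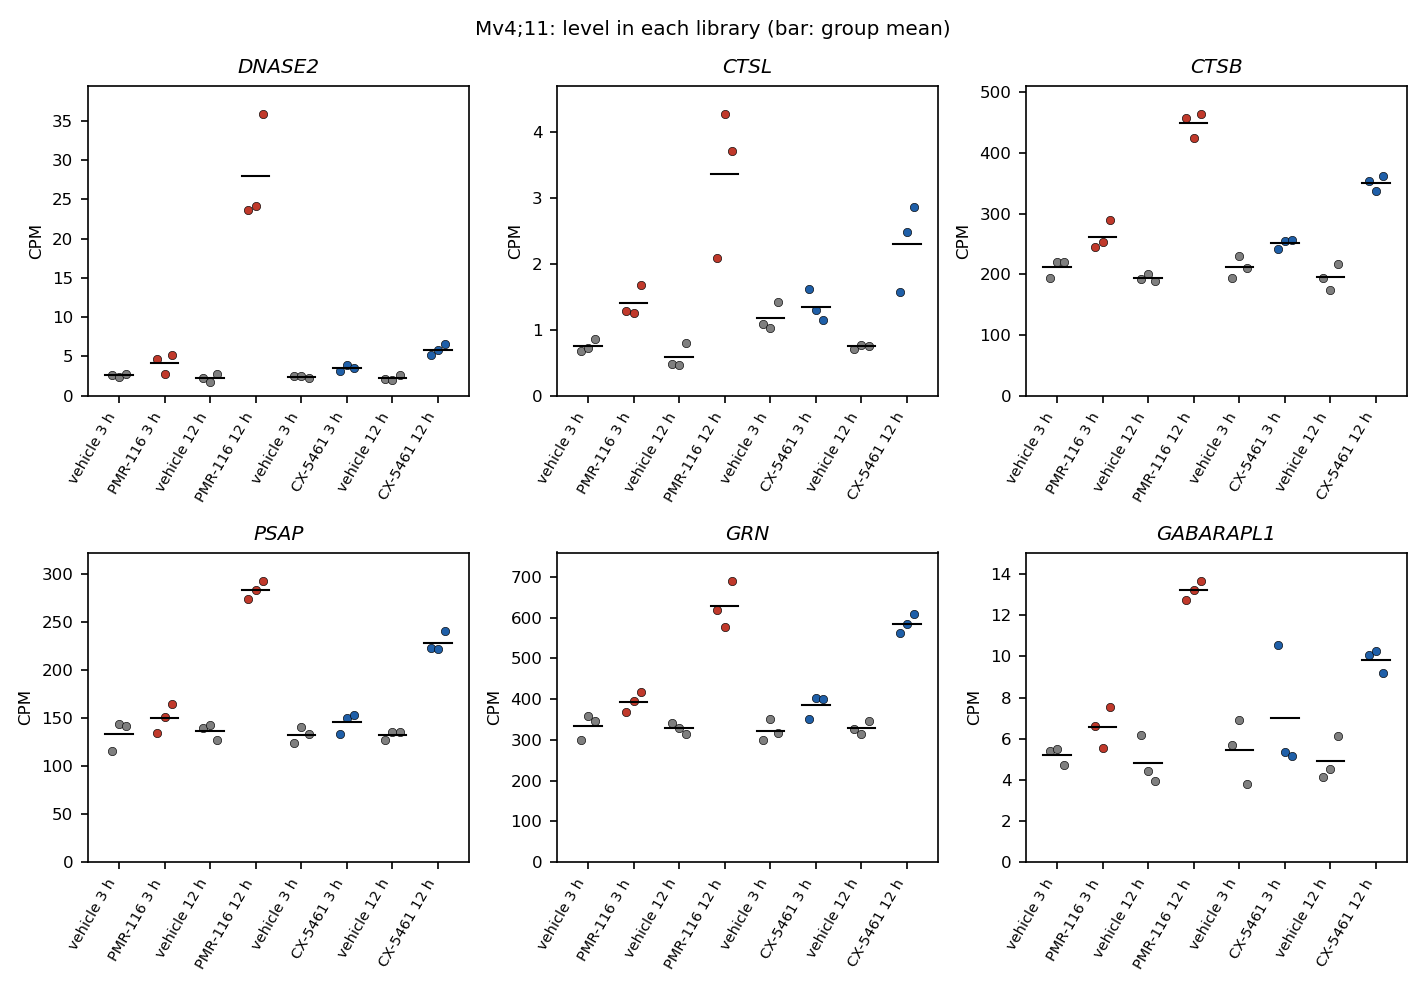
Level in CPM (vertical axis, from 0) of 6 members in each Mv4;11 library, by group (horizontal axis); grey points are vehicle, red PMR-116, blue CX-5461, and bars are group means. At 12 h every treated library lies above every vehicle library for all 6 genes, which are the members with the largest rises at 12 h of PMR-116. How many of all genes lie likewise apart was not counted. DNASE2 reaches 23.7 to 35.8 CPM with PMR-116 and 5.11 to 6.61 CPM with CX-5461.

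All 3 lumenal proteins that are not enzymes rose at 12 h of PMR-116. PSAP, the precursor of the saposins that help hydrolases act on sphingolipids, was at 274, 283 and 293 CPM against 139, 143 and 127 CPM (1.05 ± 0.08, adjusted p = 1.76e-10). GRN, the precursor of the granulins, was at 619, 578 and 691 against 341, 329 and 315 CPM (0.94 ± 0.08, adjusted p = 7.29e-10). Neither gene's groups overlapped. The sterol carrier NPC2 rose by 0.41 ± 0.09. The 4 membrane proteins rose too, by 0.44 for LAMP1 and 0.23 for LAMP2, the major glycoproteins of the lysosomal membrane, 0.35 for the cation channel MCOLN1 and 0.30 for the cholesterol exporter NPC1.

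Of the proton pump 4 of 5 components rose at 12 h of PMR-116, with a median of 0.25, and 2 of 5 without the vehicle library that stands apart. ATP6V1A, the catalytic subunit, went from 58.3, 58.7 and 61.01 to 87.5, 95.95 and 89.5 CPM (0.62 ± 0.09, adjusted p = 7.57e-06), and ATP6V1H, a regulatory subunit, rose by 0.60 ± 0.12. ATP6V0D1, of the membrane sector, and the accessory protein ATP6AP1 rose by 0.25 ± 0.09 and 0.22 ± 0.08, the calls lost without that library (adjusted p = 0.112 and 0.160). ATP6V1B2, the B subunit of the same catalytic head as ATP6V1A, was not called, at 271, 245 and 276 against 267, 258 and 255 CPM (0.02, 95% interval -0.08 to 0.13).

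Of the autophagy machinery 8 of 10 rose at 12 h of PMR-116, with a median of 0.44. GABARAPL1, an LC3-like protein of autophagic membranes, measured 12.7, 13.2 and 13.7 against 6.16, 4.42 and 3.93 CPM, with no overlap (1.45 ± 0.23, adjusted p = 1.81e-05). Its relatives MAP1LC3B and GABARAPL2 rose by 0.81 ± 0.08 and 0.53 ± 0.07. WIPI1, which binds the lipid that marks forming autophagosomes, rose by 0.61, the cargo receptor SQSTM1 by 0.45, the mitophagy receptor BNIP3L by 0.44, the mitophagy kinase PINK1 by 0.30 and the lipid scramblase ATG9A by 0.16 (adjusted p = 0.0496). ULK1, the kinase that starts autophagy, and ATG16L2 were not called (0.11 ± 0.10 and 0.26 ± 0.11). GABARAPL1 and MAP1LC3B have near-identical copies, GABARAPL3 and MAP1LC3B2, which were at 0 in all Mv4;11 libraries and at most 0.509 CPM, so few reads were given to those copies.

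Without the vehicle library that stands apart, and equally without treated replicate 3, the count of called members at 12 h was 26 in place of 32. The 6 calls lost in each case were CTSZ, GLB1, ATP6V0D1, ATP6AP1, ATG9A and BNIP3L. Without that vehicle library 8 of 13 hydrolases rose and 1 fell (median log2 fold change 0.55), 2 of 5 pump components rose (0.20) and 6 of 10 autophagy genes rose (0.34). TFEB, TFE3, the 4 membrane proteins and the 3 lumenal proteins that are not enzymes rose there too. The median over the 38 members was 0.39, and 17.9% of all genes tested rose and 21.7% fell. Scaling by library totals shifted the median of all genes tested by 0.18 at 12 h of PMR-116 and by 0.12 at 12 h of CX-5461, and on that scale the members' medians were 0.62 and 0.37.

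Set side by side at 12 h of PMR-116, the hydrolases had the widest range of log2 fold changes, from -0.31 to 3.63, against 0.02 to 0.62 for the pump and 0.11 to 1.45 for the autophagy machinery. After CX-5461 for 12 h 8 of 13 hydrolases, 2 of 5 pump components and 7 of 10 autophagy genes rose, with medians of 0.34, 0.20 and 0.32. The order of the medians was another at 3 h of PMR-116, with 0.07 for the hydrolases (4 of 13 rose), 0.20 for the pump (2 of 5) and 0.29 for the autophagy machinery (5 of 10 rose and 1 fell). At 3 h of CX-5461 the pump had the highest median, a fold of 1.24 (ATP6V0D1). The median fold there was 1.07 for the hydrolases (GAA). For the autophagy machinery it lay between 1.14 (BNIP3L) and 1.15 (MAP1LC3B). These medians describe small lists, and the differences between roles were not tested.

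**Figure D3:**
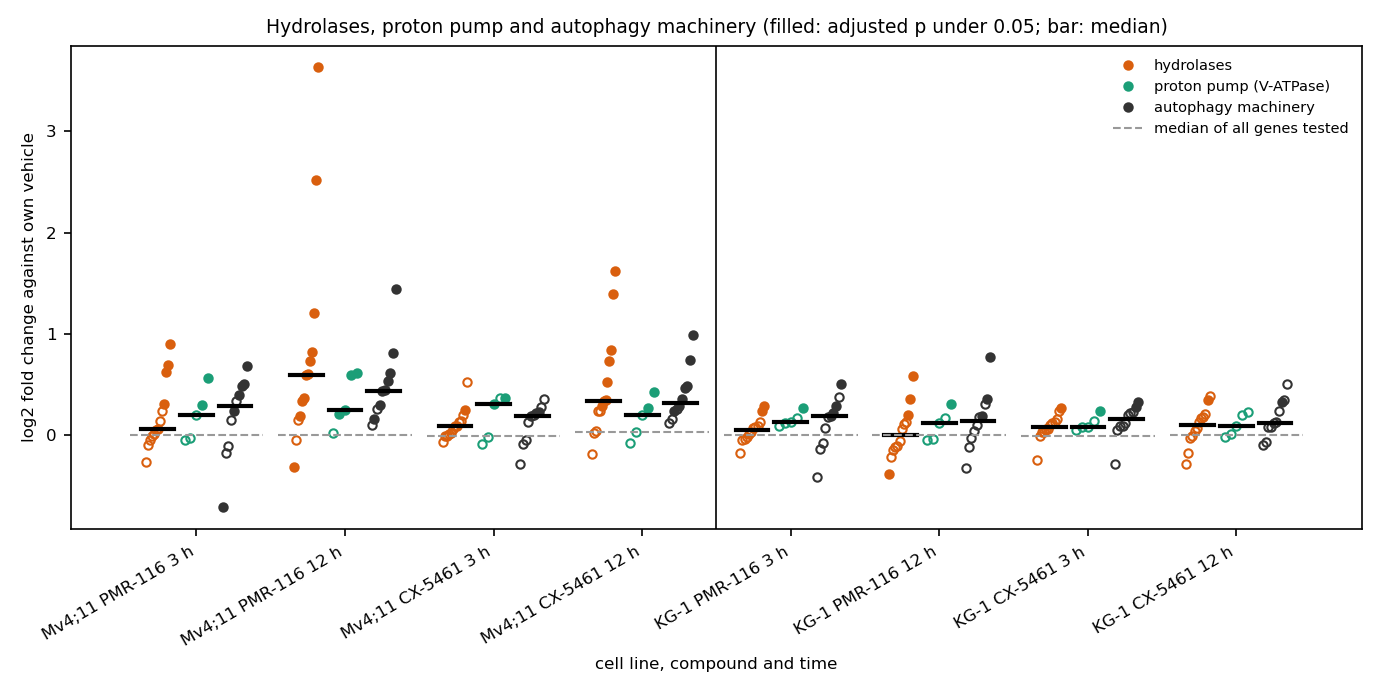
Log2 fold change (vertical axis) of each hydrolase, proton pump component and autophagy gene in the 8 comparisons (horizontal axis); filled points had an adjusted p under 0.05, black bars are the medians of each role, and dashed lines the median of all genes tested. The bars of the hydrolases and the autophagy machinery are highest at 12 h of PMR-116 in Mv4;11, at 0.60 and 0.44, where that of the pump is at 0.25. The pump's bar is higher at 3 h of CX-5461 in Mv4;11, where it lies at ATP6V0D1 (a fold of 1.24).

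The early response to PMR-116 in Mv4;11 was led by CTSL, DNASE2 and MAP1LC3B. CTSL measured 1.29, 1.25 and 1.67 against 0.676, 0.727 and 0.850 CPM at 3 h (0.90 ± 0.29, adjusted p = 0.0237). DNASE2 measured 4.62, 2.79 and 5.15 against 2.62, 2.41 and 2.70 CPM (0.69 ± 0.21, adjusted p = 0.0169). MAP1LC3B, the LC3 protein used to mark autophagosomes, measured 57.4, 53.3 and 64.5 against 39.9, 35.8 and 33.5 CPM (0.68 ± 0.08, adjusted p = 6.89e-07). The treated libraries of all 3 genes lay above those of vehicle, by a wide margin for MAP1LC3B and narrowly for DNASE2, whose treated replicate 2 was close to the highest vehicle library. NEU1 (0.62), ATP6V1H (0.57), ULK1 (0.51), SQSTM1 (0.49), PINK1 (0.40), NPC1 (0.36), CTSB (0.31), ATP6V1A (0.30), GABARAPL2 (0.24) and GRN (0.23) rose as well. ATG16L2, a relative of the LC3-conjugating factor ATG16L1, fell, from 63.6, 85.8 and 85.6 to 39.5, 49.9 and 54.01 CPM with no overlap (-0.71 ± 0.11, adjusted p = 3.79e-05). Of the 13 early rises 12 were also rises at 12 h of PMR-116, where 31 of 38 members rose, the exception being ULK1.

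The count of 15 calls at 3 h of PMR-116 fell to 9 without treated replicate 3. CTSL lost its call without vehicle replicates 1 or 2 or treated replicate 3, and DNASE2 without treated replicates 1 or 3 or vehicle replicate 2, with adjusted p up to 0.116 and 0.133. MAP1LC3B, NEU1, ULK1, SQSTM1, PINK1 and ATG16L2 kept their calls in these fits.

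After 12 h of CX-5461 the same 3 genes led in Mv4;11 as after PMR-116. CTSL measured 1.57, 2.48 and 2.86 against 0.709, 0.764 and 0.759 CPM (1.62 ± 0.28, adjusted p = 8.3e-05), and DNASE2 5.11, 5.82 and 6.61 against 2.10, 1.93 and 2.62 CPM (1.39 ± 0.21, adjusted p = 1.34e-05). GABARAPL1 measured 10.1, 10.3 and 9.17 against 4.13, 4.55 and 6.12 CPM (0.99 ± 0.23, adjusted p = 0.00195). None of the 3 overlapped with vehicle. CTSB (0.85), GRN (0.83), PSAP (0.79), WIPI1 (0.74), CTSD (0.74), GAA (0.53), ATG16L2 (0.48), MAP1LC3B (0.47) and ATP6V1A (0.43) followed. Of the 22 rises 21 were shared with the 31 rises at 12 h of PMR-116 (95.5% of the shorter list and 67.7% of the longer), and ATG16L2 was the exception. The longer list held 31 of the 38 members, so most of any list of members would be shared with it. Sharing over all genes was not counted.

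Among the 6 members called at 3 h of CX-5461 in Mv4;11, the 2 largest rises were of the proton pump. DNASE2 was not called but had the largest fitted fold of the members, 1.44, with all treated libraries above those of vehicle. ATP6V1H (1.29) and GABARAPL1 (1.28), also not called, had larger fitted folds than ATP6V0D1 (1.24). ATP6V1A measured 70.4, 82.1 and 76.6 against 56.2, 65.6 and 54.99 CPM (0.37 ± 0.09, adjusted p = 0.00935) and ATP6V0D1 94.2, 111 and 104 against 73.96, 91.6 and 83.3 CPM (0.31 ± 0.09, adjusted p = 0.0222), each without overlap. GRN, at 350, 404 and 401 against 300, 352 and 316 CPM, overlapped with vehicle in 1 library (0.26 ± 0.08, adjusted p = 0.0339). CTSB (0.25), SQSTM1 (0.24) and PINK1 (0.22) were the other rises. This set of 6 rested on single libraries: 0 members were called without vehicle replicate 3, 2 without vehicle replicate 1 or treated replicate 2, and 3 without treated replicate 3.

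PMR-116 and CX-5461 were compared at the same dose and time as a difference of their effects. At 12 h in Mv4;11 3 of 38 members differed (1.27% of all genes were higher and 3.84% lower with PMR-116), all with the larger rise after PMR-116. The differences were 2.24 ± 0.29 for DNASE2 (95% interval 1.63 to 2.84, adjusted p = 7.55e-05), 0.53 for CTSS (0.24 to 0.83, adjusted p = 0.0291) and 0.41 for GABARAPL2 (0.21 to 0.62, adjusted p = 0.0135). CTSS lost its call in 8 of the 12 fits that left out 1 library, and held it only without vehicle for PMR-116 replicate 1, PMR-116 replicate 1, vehicle for CX-5461 replicate 2 or CX-5461 replicate 2. The count of 3 became 5 without vehicle for CX-5461 replicate 2. For 34 of the 38 members the interval lay within 1 log2 unit of no difference, the exceptions being DNASE2, CTSL (0.06 to 1.73), GABARAPL1 (-0.22 to 1.14) and MITF (-0.21 to 2.16). That limit is above the effects of most members themselves. For CTSB the difference was 0.36 (0.14 to 0.59, adjusted p = 0.0524).

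At 3 h in Mv4;11 only MAP1LC3B differed between the compounds (0.610% of all genes were higher and 0.732% lower), by 0.48 ± 0.11 (95% interval 0.25 to 0.70, adjusted p = 0.0267). The count of 1 became 2 without replicate 1 of PMR-116 or of its vehicle. The call of MAP1LC3B was lost without any of 6 of the 12 libraries, which were vehicle for CX-5461 replicate 1, CX-5461 replicates 2 and 3, vehicle for PMR-116 replicates 2 and 3 and PMR-116 replicate 3. In KG-1 0 of 36 members differed at either time by edgeR, where 0% of all genes were higher and 0.0107% lower at 3 h, and 0.0215% higher and 0.0269% lower at 12 h. At an unadjusted p under 0.05 there were 1 and 2 members, and DESeq2 called 0 and 1. All 36 intervals lay within 1 log2 unit of no difference at both times. That limit is above the largest effect of any member in KG-1, a fold of 1.70 for PINK1 at 12 h of PMR-116. It leaves room for differences as large as a whole effect. The 1 member that DESeq2 called was PINK1 at 12 h, where edgeR gave a difference of 0.43 (95% interval 0.23 to 0.64, adjusted p = 0.0772). The replicate block also called it (0.44, adjusted p = 0.00217).

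**Figure D4:**
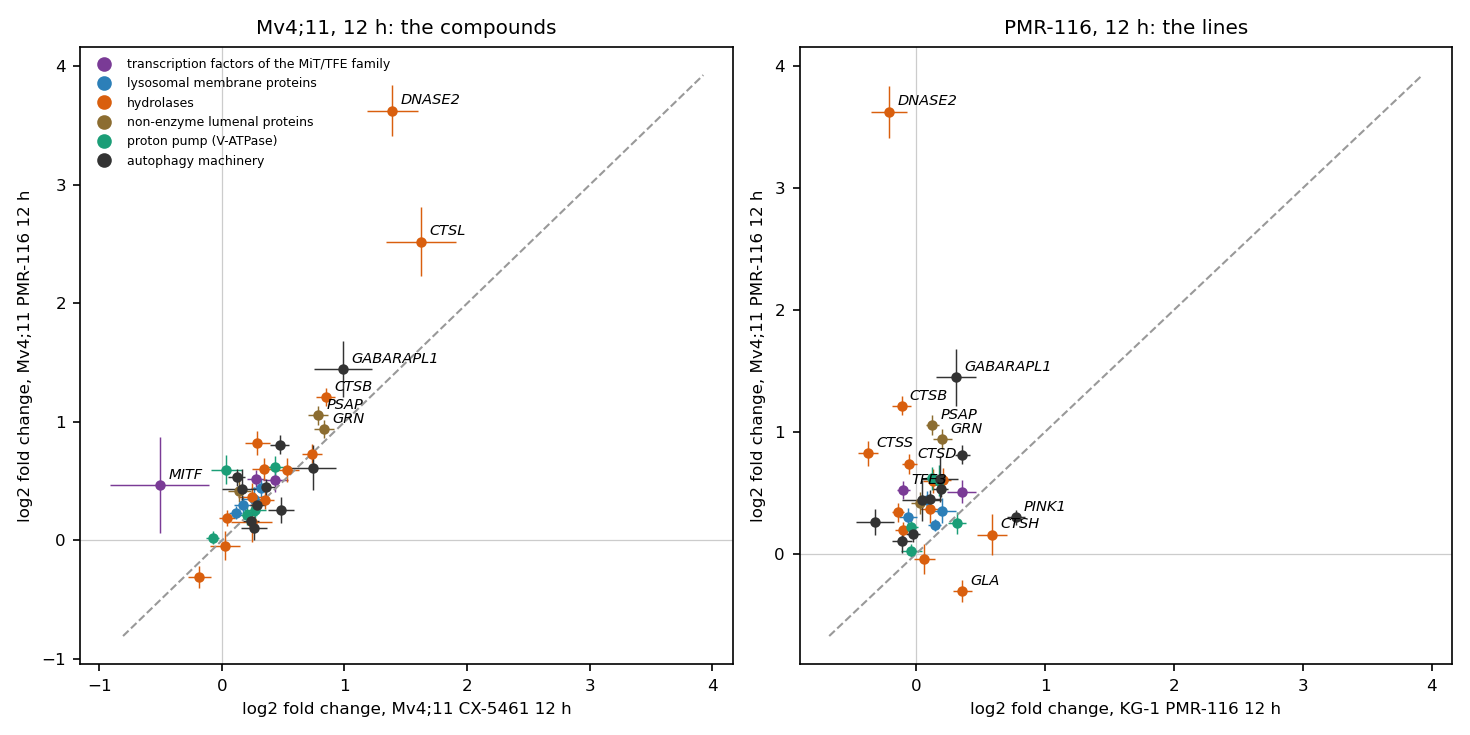
Log2 fold change at 12 h of each member, with SE bars: PMR-116 against CX-5461 in Mv4;11 (left) and PMR-116 in Mv4;11 against PMR-116 in KG-1 (right); colours are roles and the dashed line marks equal values. DNASE2 lies far above the line in both panels, at 3.63 for Mv4;11 with PMR-116 against 1.39 with CX-5461 and -0.21 in KG-1.

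The rise grew with time in Mv4;11. For PMR-116 the 12 h effect was larger than the 3 h effect for 14 of 38 members and smaller for 2 (12.2% and 15.4% of all genes). The differences were 2.93 for DNASE2, 1.62 for CTSL, 1.11 for GABARAPL1, 1.08 for CTSS, 0.97 for ATG16L2, 0.90 for CTSB and 0.89 for PSAP, with ULK1 (-0.40) and GLA (-0.45) on the other side. ULK1 was the least stable of these, and lost its call in 9 of 12 fits that left out 1 library, all but those without 3 h vehicle replicate 1, 12 h vehicle replicate 1 or 12 h PMR-116 replicate 2. For CX-5461 11 members were larger at 12 h and none smaller (7.59% and 9.15% of all genes), among them CTSL (1.42), DNASE2 (0.86), WIPI1 (0.83), ATG16L2 (0.76), PSAP (0.65), CTSD (0.61) and CTSB (0.60), and the count was 6 without 3 h CX-5461 replicate 2, 12 h vehicle replicate 1 or 12 h CX-5461 replicates 2 or 3, and 7 without 3 h vehicle replicates 2 or 3. None of the 5 pump components differed between the times under either compound in Mv4;11. In KG-1 the peptidase CTSH was larger at 12 h of PMR-116 (0.63 ± 0.17, adjusted p = 0.0458; 0.918% of all genes were larger and 0.768% smaller), a call lost in 14 of the 16 fits that left out 1 library, all but those without 12 h vehicle replicate 1 or 12 h PMR-116 replicate 3. For CX-5461 0 members of 36 differed between the times in KG-1 by edgeR or DESeq2 (0.145% and 0.118% of all genes were higher and lower), with 1 at an unadjusted p under 0.05.

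PINK1 had the largest rise in KG-1 at both times of PMR-116. PINK1, a kinase that accumulates on damaged mitochondria and starts their removal, measured 21.3, 24.3, 21.6 and 24.4 CPM at 3 h of PMR-116 against 14.3, 17.4, 16.1 and 16.4 CPM (0.51 ± 0.07, adjusted p = 1.93e-05). At 12 h it measured 31.2, 32.6, 30.7 and 33.1 against 17.6, 19.7, 18.3 and 19.4 CPM (0.77 ± 0.07, adjusted p = 1.72e-08). The groups did not overlap at either time. With CX-5461 PINK1 measured 17.8, 20.8, 19.6 and 18.5 against 13.4, 16.1, 16.8 and 14.8 CPM at 3 h (0.33 ± 0.07, adjusted p = 0.00668), and 22.6, 24.7, 23.5 and 23.4 against 18.2, 19.5, 18.8 and 18.1 CPM at 12 h (0.33 ± 0.07, adjusted p = 0.00666), again without overlap.

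PINK1 also rose in the 4 Mv4;11 comparisons, between 0.22 and 0.40, with the call at 3 h of CX-5461 lost without vehicle replicates 1 or 3 or when the compared groups alone were fitted (adjusted p up to 0.0875). Its antisense partner PINK1-AS was at 8.75 to 10.2 CPM at 12 h of PMR-116 in Mv4;11 against 12.1 to 14.4 CPM with vehicle, and at 2.37 to 3.30 against 2.88 to 3.81 CPM in KG-1. Whether the counting used strand is not given in the sources used here, so how far reads of the pair mix was not tested.

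The other early rises in KG-1 with PMR-116 were small. SQSTM1 measured 200.7, 173, 174.6 and 169.9 CPM at 3 h against 171, 133.8, 137.6 and 145.9 CPM, which overlapped (0.29 ± 0.08, adjusted p = 0.0301). Its call was lost without treated replicate 1 or any of vehicle replicates 2, 3 and 4. NEU1 measured 55.03, 54.2, 45.9 and 51.9 against 45.95, 42.4, 39.2 and 42.2 CPM, with overlap in 1 library (0.29 ± 0.06, adjusted p = 0.00507). ATP6V1H (0.27), GLA (0.24), MAP1LC3B (0.22) and GABARAPL2 (0.19) made up the 7. Of the 7, 6 were also rises at 3 h of PMR-116 in Mv4;11, where 13 of 38 members rose. Sharing over all genes was not counted. The count was 3 without vehicle replicate 2, and 4 without vehicle replicate 3 or treated replicate 3.

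In KG-1 CTSH and GLA rose and CTSS fell at 12 h of PMR-116, whereas in Mv4;11 GLA fell, CTSS rose and CTSH was not called. CTSH, an aminopeptidase, measured 22.6, 18.3, 14.6 and 19.04 against 14.9, 12.3, 10.5 and 11.8 CPM, which overlapped in 1 library (0.59 ± 0.12, adjusted p = 0.00123). GLA measured 26.4, 26.1, 23.6 and 23.4 against 20.5, 20.4, 17.5 and 19.4 CPM with no overlap (0.36 ± 0.07, adjusted p = 0.00173). CTSS fell, from 56.6, 56.2, 48.1 and 52.4 to 44.1, 45.4, 38.1 and 36.6 CPM, also without overlap (-0.38 ± 0.08, adjusted p = 0.00203). MAP1LC3B (0.36), ATP6V0D1 (0.31), NEU1 (0.20) and GABARAPL2 (0.19) rose, and DNASE2 (-0.21 ± 0.14), CTSB (-0.12 ± 0.07) and CTSD (-0.06 ± 0.06) were not called. The hydrolases' median was 0.00, with 3 of 12 up and 1 down.

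TFEB was the sole MiT/TFE factor that was called in KG-1. With PMR-116 at 12 h it measured 18.5, 19.8, 17.9 and 17.5 against 12.8, 15.8, 14.6 and 14.5 CPM, without overlap (0.35 ± 0.11, adjusted p = 0.0448), a call that was lost without any 1 of the 8 libraries (adjusted p up to 0.139) and was held with the replicate block (0.00188). With CX-5461 at 3 h it measured 17.1, 17.6, 12.6 and 14.1 against 11.8, 12.8, 11.2 and 9.61 CPM, with overlap (0.44 ± 0.11, adjusted p = 0.0253), lost without treated replicates 1 or 2 or vehicle replicates 3 or 4. At 3 h of PMR-116 it was at 14.7, 16.5, 13.2 and 14.7 against 12.5, 14.01, 10.3 and 11.6 CPM (0.28, adjusted p = 0.141; 0.0129 with the replicate block). At 12 h of CX-5461 it was at 17.6, 20.02, 18.2 and 15.1 against 13.1, 16.9, 13.2 and 13.2 CPM (0.33, adjusted p = 0.129; 0.00693 with the block).

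TFE3 was not called in KG-1. With PMR-116 it measured 61.1, 64.2, 63.5 and 61.6 against 59.9, 62.1, 58.3 and 61.4 CPM at 3 h (log2 fold change 0.05), and 63.8, 63.2, 58.4 and 61.9 against 61.6, 72.7, 67.4 and 63.9 CPM at 12 h (-0.10). With CX-5461 it measured 58.4, 63.1, 57.9 and 57.6 against 60.5, 59.8, 58.3 and 59.4 CPM at 3 h (-0.01), and 60.8, 63.5, 69.4 and 60.6 against 61.96, 65.1, 62.3 and 59.3 CPM at 12 h (0.03). The groups overlapped in all 4 comparisons.

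In KG-1 5 of 36 members were called at 3 h and 2 at 12 h of CX-5461, and with the replicate block 10 and 13, where the block called 9.31% and 7.05% of all genes. At 3 h ULK1 measured 53.9, 64.1, 63.4 and 55.3 against 50.2, 46.1, 49.8 and 49.2 CPM with no overlap (0.28 ± 0.08, adjusted p = 0.0423), and NEU1 (0.27) and ATP6V1H (0.24) rose with TFEB and PINK1. Leaving out 1 library took the count of 5 to 1 without treated replicate 2 or vehicle replicate 4, to 2 without treated replicate 1, and to 3 without vehicle replicates 1, 2 or 3, and ULK1 lost its call in 6 of these 8 fits. At 12 h GLA measured 26.03, 25.2, 20.9 and 22.4 against 20.5, 18.3, 16.8 and 18.5 CPM with no overlap (0.35 ± 0.07, adjusted p = 0.00634) and rose beside PINK1. The count of 2 became 4 without vehicle replicate 1 or treated replicate 3, when CTSH and ATP6V1A were called too.

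**Figure D5:**
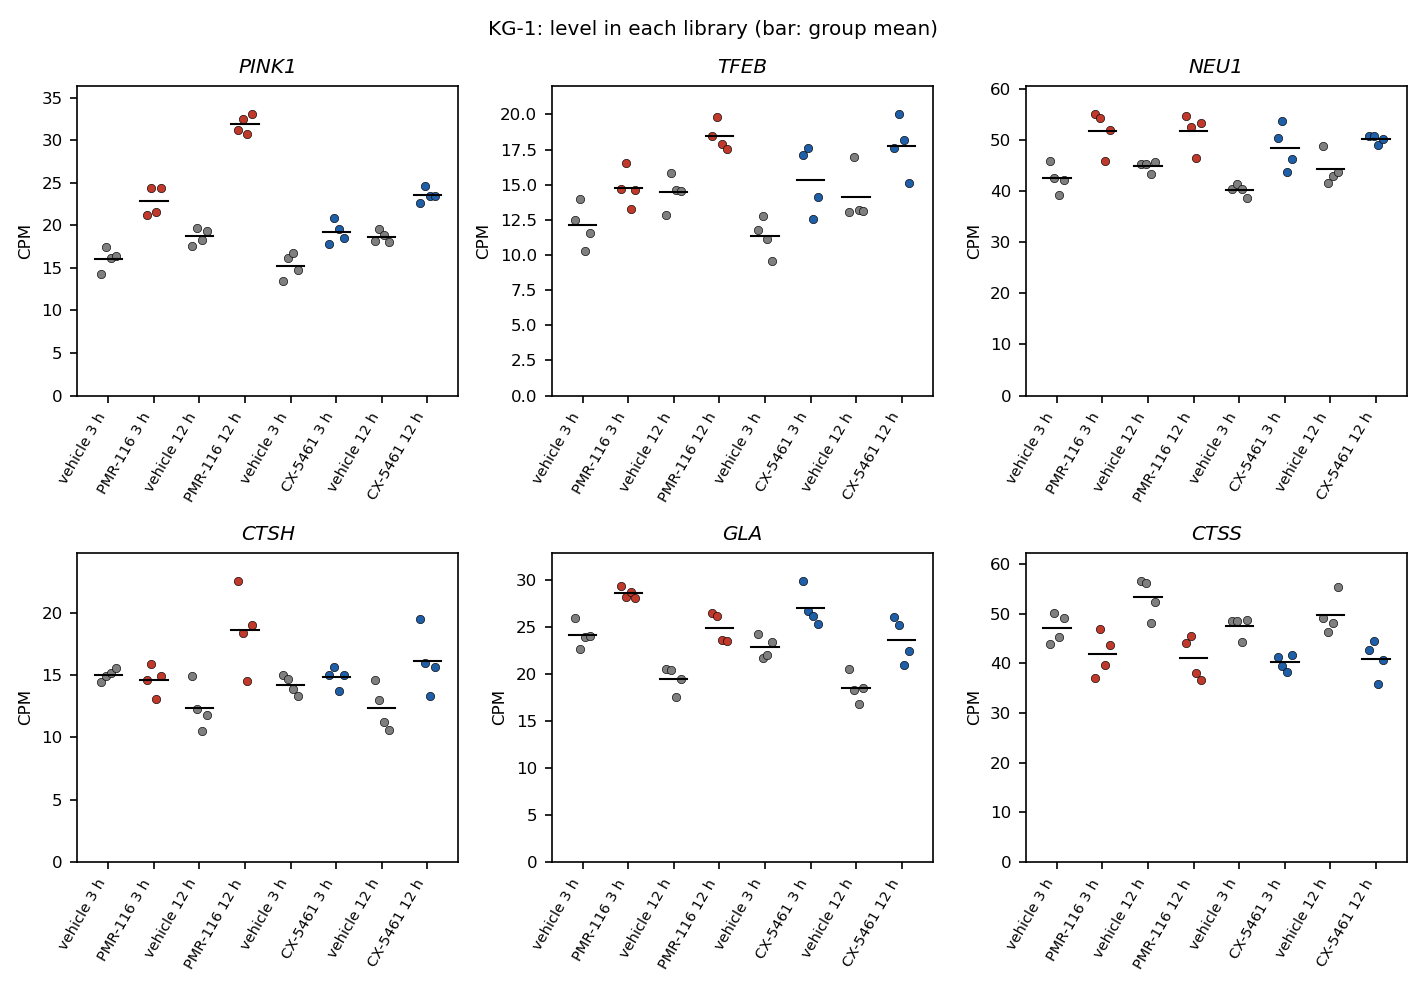
Level in CPM (vertical axis, from 0) of 6 members in each KG-1 library, by group (horizontal axis); grey points are vehicle, red PMR-116, blue CX-5461, and bars are group means. PINK1 reaches 30.7 to 33.1 CPM at 12 h of PMR-116, above its vehicle at 17.6 to 19.7 CPM, and CTSS lies below vehicle there, at 36.6 to 45.4 against 48.1 to 56.6 CPM.

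The effects of the 2 lines were set against each other in a joint fit. The effect of 12 h of PMR-116 was larger in Mv4;11 for 24 of 38 members and smaller for 2 (12.1% and 13.2% of all genes). DNASE2 differed by 3.89 ± 0.25, CTSB by 1.39, CTSS by 1.26, GABARAPL1 by 1.20, PSAP by 0.99, CTSD by 0.85, GRN by 0.80 and TFE3 by 0.68. PINK1 (-0.42) had the larger rise in KG-1, and GLA (-0.61) fell in Mv4;11 and rose in KG-1. CTSL was called too (3.54), but its KG-1 libraries held at most 0.235 CPM, so that value rests on a gene barely counted there. For CX-5461 at 12 h 15 were larger in Mv4;11 and GLA (-0.51) was smaller (7.18% and 9.04% of all genes). That count of 16 ran from 9 to 15 when 1 library was left out, with 9 without KG-1 vehicle replicate 4 and 10 without Mv4;11 CX-5461 replicate 2, KG-1 vehicle replicate 1 or KG-1 CX-5461 replicate 3.

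At 3 h the lines differed less. For PMR-116 NPC1 (0.51 ± 0.10), MAP1LC3B (0.51 ± 0.10) and NEU1 (0.39 ± 0.11) were larger in Mv4;11 (3.75% of all genes were larger and 3.19% smaller), and 8 members differed with the replicate block. For CX-5461 0 members differed by edgeR or DESeq2 (1.57% and 1.50% of all genes were higher and lower), with 2 at an unadjusted p under 0.05 and 1, ATP6V1A, with the block.

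The starting level of DNASE2 differed between the lines. It lay between 1.72 and 2.71 CPM in the 12 Mv4;11 vehicle libraries and between 20.5 and 41.4 CPM in the 16 of KG-1, and the 12 h PMR-116 libraries of Mv4;11 (23.7 to 35.8 CPM) fell within the KG-1 range. The tables of the lines were scaled separately, so this is a description without a test.

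The E-box content of the promoters printed above was set beside the response. Among the 7 members with CACGTG 6 rose in Mv4;11 after 12 h of PMR-116, with a median log2 fold change of 0.44 and a range of -0.04 (CTSA) to 0.73 (CTSD). Of the 21 matched members without it 16 rose and 1 fell, with a median of 0.45 and a range of -0.31 to 3.63. Without the vehicle library that stands apart 5 of the 7 rose (median 0.38) and 12 of the 21 rose and 1 fell (0.39). At 12 h of CX-5461 the medians were 0.32 and 0.26. CTSA, whose window holds both words within 42 bases of the start, was not called in any of the 8 comparisons. DNASE2, CTSL and GABARAPL1, whose windows hold neither, had the 3 largest rises at 12 h of either compound in Mv4;11. These genes were picked by their response, and 10 members had no window. Whether the words bear on the response was not tested.

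Other genes of the pathway were counted from lists that do not overlap the 38, beside 20.7% of all genes that rose and 22.5% that fell in Mv4;11 after 12 h of PMR-116. Those lists too were chosen with earlier results of these data known. Of 33 other hydrolases 21 rose and 4 fell, with a median of 0.46. FUCA1, which removes fucose, led at 103, 115 and 116 against 41.7, 51.6 and 42.1 CPM (1.30 ± 0.09), and CTSC, which activates granule proteases, fell furthest, at 113, 105 and 111 against 181, 178 and 159 CPM (-0.65 ± 0.06). Of 22 other membrane and sorting proteins 9 rose and 1 fell, from the potassium channel TMEM175 (1.05 ± 0.12) to TMEM192 (-0.63 ± 0.10). Of 16 other pump subunits 4 rose, a share near that of all genes, and none fell, with a median of 0.06, and ATP6V0A1, of the membrane sector, led (0.96 ± 0.11). Of 38 other autophagy genes 15 rose and 6 fell, with a median of 0.08, from WDR45 (1.00 ± 0.15), a relative of WIPI1, to the mitophagy receptor BNIP3 (-0.90 ± 0.19).

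Of 18 genes of lysosomal nutrient sensing tested there 1 rose and 10 fell, with a median of -0.25. The rise was TFEC (0.62 ± 0.14), a further member of the MiT/TFE family. RRAGD, a GTPase that recruits mTORC1 to lysosomes, fell most, from 2.49, 2.08 and 1.43 to 1.42, 0.498 and 0.708 CPM (-1.18 ± 0.43, adjusted p = 0.0294), a gene of low abundance whose highest treated library was just below its lowest vehicle library. With CX-5461 at 12 h 1 of 18 rose and 6 fell, where 14.8% of all genes rose and 16.5% fell.

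In KG-1 at 12 h of PMR-116 4.73% of all genes rose and 4.74% fell. Of 31 other hydrolases 1 rose and 3 fell. The rise was SGSH, a heparan sulfatase, at 1.93, 1.22, 1.09 and 1.21 against 0.320, 0.733, 0.489 and 0.403 CPM (1.49 ± 0.40, adjusted p = 0.0158), and AGA, which cleaves glycoasparagine, fell furthest (-0.42 ± 0.10). SGSH rose in Mv4;11 too (1.18 ± 0.18). Of 23 other membrane and sorting proteins 3 rose and 2 fell, with the largest rise for the chloride transporter CLCN7 (0.28 ± 0.09). Of 15 other pump subunits ATP6V1E1 alone rose (0.29 ± 0.05), of 38 other autophagy genes 3 rose and 1 fell, from FUNDC1 (0.33 ± 0.10) to ATG10 (-0.45 ± 0.08), and of 19 nutrient sensing genes 3 rose and 1 fell, from RHEB (0.32 ± 0.08) to MLST8 (-0.27 ± 0.06).

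Markers of monocytes and macrophages, cells rich in lysosomes, moved in Mv4;11 beside the members. Of 12 listed 10 were tested, and at 12 h of PMR-116 4 rose and 3 fell (20.7% and 22.5% of all genes). CD86 (3.61), ITGAM (1.77) and CSF1R (0.95) were among those that rose, and S100A9 (-1.38), LYZ (-0.51) and FCGR1A (-0.37) fell. The summed level of the list was 782 to 1021 CPM with PMR-116 and 1155 to 1303 CPM with vehicle. CD163 and MRC1 had means under 0.1 CPM in both groups. At 12 h of CX-5461 3 rose and 1 fell (14.8% and 16.5% of all genes). The sums were 1135 to 1405 against 1240 to 1357 CPM. In KG-1 none of the 6 tested was called at 12 h of PMR-116, where 4.73% of all genes rose and 4.74% fell.

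Other marker lists moved in Mv4;11 as well, where 20.7% of all genes rose at 12 h of PMR-116 and 14.8% at 12 h of CX-5461. Of 7 erythroid and megakaryocyte markers 2 were tested, KLF1 and ITGA2B, and both rose at 12 h of PMR-116 (1.27 and 1.50) and ITGA2B alone at 12 h of CX-5461 (1.61). The sums of the list were low, at 13.4 to 15.1 against 4.75 to 6.21 CPM and at 15.6 to 18.6 against 5.39 to 6.41 CPM. HBA1, HBB, PF4 and GP9 had means under 0.1 CPM in each of these 4 groups. Of 8 markers of fibroblasts, endothelium and epithelium 3 were tested, and PECAM1, which blood cells also express, rose at 12 h of PMR-116 (0.94) and of CX-5461 (0.66), with sums of 108 to 121 against 55.3 to 70.3 CPM for PMR-116 and 94.4 to 109 against 59.8 to 75.97 CPM for CX-5461. COL1A2, CDH5, EPCAM and KRT19 had means under 0.1 CPM in each group there. The 3 lymphocyte markers tested were not called at 12 h of either compound.

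Of the leukaemia markers, which mark the lines themselves, 6 of 6 tested fell in Mv4;11 at 3 h of PMR-116 (median -0.53). There 13.1% of all genes fell. The sums of the list were 642 to 716 against 915 to 967 CPM. At 3 h of CX-5461 PTPRC and FLT3 fell (6.61% of all genes did), with sums of 731 to 769.6 against 903 to 955 CPM. At 12 h PTPRC and KIT rose with either compound and SPI1 with CX-5461, and FLT3 fell with either. Of all genes 20.7% rose and 22.5% fell at 12 h of PMR-116, and 14.8% and 16.5% at 12 h of CX-5461. The part of these marker lists in the members' changes was not tested.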

How the data were processed

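RNA sequencing was done on 56 libraries of 2 cell lines. Per the labels' protocols RNA was taken with a Nucleospin kit and libraries were made with a stranded Illumina mRNA kit. Reads were quantified with Salmon 1.5.2 against GRCh38.p13, and DESeq2 was also named, per the submitters' processing notes. Which annotation release was used, and whether strand was, is not stated in the sources used here. The authors deposited 1 table of estimated counts per gene symbol for each line, and these were rounded to whole numbers. The Mv4;11 table held 24 further columns that matched no sample and were not used.

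Low counts were filtered with filterByExpr (minimum 10 in a library, 15 in total) and libraries scaled by TMM. Each line's 8 groups entered 1 fit of edgeR 4.0.16's quasi-likelihood test (R 4.3.3, limma 3.58.1), and all 16 groups entered a joint fit of 23759 genes for differences between lines. P-values were adjusted over all genes tested by Benjamini-Hochberg, and calls were made at adjusted p-values under 0.05. Fold changes are log2 with standard errors, and intervals are 95%. The fit was tested on simulated data. DESeq2 1.42.0, other scalings and filters, the replicate block, fits of the compared groups alone and leaving out each library were alternatives.

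Correlations of deviations from the group means between same-numbered libraries, treated with vehicle, had a minimum over pairs of 0.113 to 0.179 in the 4 KG-1 comparisons, so that the numbers were taken as pairs there. In Mv4;11 the minimum was 0.115 at 3 h of CX-5461 and 0.0156 to 0.0932 in the other comparisons. In KG-1 4 of 4 treated libraries at 3 h, and 3 of 4 at 12 h, matched best with the vehicle library of their own number. In Mv4;11 3 of 3 did, but 2 of 3 at 12 h of PMR-116. The lines were therefore not sharply apart in this respect, and the main fits of both lines left the pairing out. Correlations between replicates ran from 0.994 to 0.997, and no pair of libraries agreed within sampling noise.

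The 38 genes and the other lists were chosen with earlier results of these data known. Every library's value is given for the 3 transcription factors (MITF in KG-1 by its range) and, per compound and time, for the 3 called members with the largest rises and the 2 with the largest falls; other genes of the pathway are counted, with the largest called rise and fall at 12 h of PMR-116. SGSH in Mv4;11, and CTSB, PSAP, GRN, ATP6V1A and ATP6V1B2 at 12 h of PMR-116, and the markers named, were given outside this rule, after their values were seen. Values of some genes on the other lists are not reported here.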

Additional observations from a re-analysis of the deposited data

Results flagged for a closer look

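Of 38 sets of 4 KG-1 libraries checked for a library far from its replicates, 3 held one, and chance gives about 1 in 20 such sets. SQSTM1 was at 200.7 CPM in KG-1 PMR-116 3 h replicate 1, TFE3 at 63.07 CPM in KG-1 CX-5461 3 h replicate 2, and TFEB at 16.94 CPM in KG-1 vehicle for CX-5461 12 h replicate 2, each far above the other 3 libraries of its group for the width of that group.

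Several effects differed between the times by a test of the difference itself. In Mv4;11 16 members differed between 12 h and 3 h of PMR-116, with log2 differences of 2.933 for DNASE2, 1.621 for CTSL, 1.106 for GABARAPL1, -0.452 for GLA and -0.4024 for ULK1. For CX-5461 11 members differed, led by CTSL (1.417), DNASE2 (0.8636) and WIPI1 (0.8261). In KG-1 1 member, CTSH (0.6277), differed between the times of PMR-116.

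Effects also differed between the lines, Mv4;11 minus KG-1, where line and batch cannot be told apart. At 3 h of PMR-116 3 members differed, NPC1 by 0.5142, MAP1LC3B by 0.5134 and NEU1 by 0.3893. At 12 h of PMR-116 26 differed, with 3.895 for DNASE2, 3.543 for CTSL, 1.386 for CTSB, -0.6068 for GLA and -0.4152 for PINK1. At 12 h of CX-5461 16 differed, with 2.875 for CTSL, 1.582 for DNASE2, 0.8009 for CTSB and -0.5059 for GLA. CTSL was near 0 in KG-1.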

How the results depend on the processing

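No named member reversed direction where its main value or the alternative value was called. Changes of sign between values called in neither run were counted as unchanged. Over the named members and their alternatives, 994 of 1126 values kept their side of the threshold, 130 lost the call and 2 gained one.

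With the replicate block the counts of called members in KG-1 became 12 and 16 at 3 h and 12 h of PMR-116 and 10 and 13 at 3 h and 12 h of CX-5461. The block gave 1 for PMR-116 against CX-5461 at 12 h, 3 for 12 h against 3 h of PMR-116 and 1 for the same times of CX-5461 in KG-1. Between the lines it gave 8 at 3 h of PMR-116 and 1 at 3 h of CX-5461, and it moved no other count by over 1.5 times. In Mv4;11 the block moved no count of compound against vehicle by that much.

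In KG-1 at 3 h of PMR-116, using no filter gave 4. At 3 h of CX-5461, no filter gave 3 and the compared groups alone 1. At 12 h of CX-5461, library totals gave 6, DESeq2 7, the 1 CPM filter 6 and the compared groups alone 0. For PMR-116 against CX-5461 at 12 h in KG-1, DESeq2 and the 1 CPM filter gave 1. For 12 h against 3 h of PMR-116 in KG-1, DESeq2 size factors, no filter and the compared groups alone gave 0.

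For PMR-116 against CX-5461 in Mv4;11 at 3 h, library totals and DESeq2 gave 2, no filter 3 and the compared groups alone 0. At 12 h library totals, DESeq2, the 1 CPM filter and the compared groups alone gave 6, and no filter 5. For 12 h against 3 h of PMR-116 in Mv4;11, library totals gave 25. Between the lines, library totals and DESeq2 gave 5 at 3 h of PMR-116, and library totals gave 1 at 3 h of CX-5461. The word TCACGTGA with G and C added at its ends was found in 2 promoters in place of 5. The cause of these changes was not tested.

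Leaving out 1 library in Mv4;11 gave 9 to 16 called members at 3 h and 26 to 32 at 12 h of PMR-116, and 0 to 6 at 3 h and 18 to 22 at 12 h of CX-5461. In KG-1 it gave 3 to 6 and 6 to 8 for PMR-116 and 1 to 5 and 2 to 4 for CX-5461. For PMR-116 against CX-5461 it gave 0 to 2 at 3 h and 2 to 5 at 12 h in Mv4;11. For 12 h against 3 h in Mv4;11 it gave 12 to 19 for PMR-116 and 6 to 10 for CX-5461, and in KG-1 0 to 1 for PMR-116. Between the lines it gave 2 to 4 and 21 to 26 for PMR-116 at 3 h and 12 h and 9 to 15 for CX-5461 at 12 h.

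CTSL and MITF in Mv4;11 had few counts, and their intervals are wide. With 3 or 4 libraries a group, small changes can go undetected.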
